A study of Mus musculus with 6 samples.

Results

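RLTR and RMER repeats are long terminal repeats (LTRs) and a few internal pieces of mouse endogenous retroviruses of the ERVK class, the descendants of betaretrovirus-like viruses. They were taken from the authors' deposited table of repeats as every row of class LTR/ERVK whose repeat name begins with RLTR or RMER, without the RLTR10 and RLTRETN names. The rule gave 22540 of the 773731 rows, 13363 named RLTR and 9177 named RMER, from 177 names and 21616 loci. A row is 1 locus in 1 read direction, and 924 loci had rows in both directions. The table compares 3 libraries of Trp53-/- cells (Trp53_KO) with 3 of Trp53+/+ cells (Trp53_WT) of ID8, a C57BL/6 mouse ovarian surface epithelial line, all asynchronous, untreated and made from total RNA. The labels do not say whether a genotype is 1 clone or whether replicates were separate cultures. The p-values below therefore reflect only how far these 6 libraries differ, and that spread may be technical. The deposited repeat table gives 1 log2 fold change and 1 FDR per row and no value per library, so the depth and the spread behind a row are unknown.

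An LTR flanks an integrated provirus on both sides and carries the viral promoter, enhancer and polyadenylation signal. Most copies in the genome are solitary LTRs left when the internal part was lost by recombination. In mouse stem cells ERVK copies are held silent by zinc-finger proteins that recruit TRIM28 and the histone methyltransferase SETDB1, and by DNA methylation. Single LTRs can also act as promoters or exons of nearby genes, and p53, the product of Trp53, is known to bind some LTR families of the human genome.

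The sequences shown here, 5′ to 3′ on the strand named, are of copies described below and were chosen after their values were seen. Capitals mark the promoter motif TATAAA, the polyadenylation signal AATAAA, or a half-site of the p53 response element, each searched on both strands. The first group are exons of noncoding transcripts that lie inside an LTR or internal piece, from GENCODE M21 on GRCm38, each cut at 300 bases. The RLTR46B copy is exon 3 of a Gm20559 transcript, chr6:3333441-3333740 on the minus strand, and begins with the tg that opens an LTR.
RLTR46B: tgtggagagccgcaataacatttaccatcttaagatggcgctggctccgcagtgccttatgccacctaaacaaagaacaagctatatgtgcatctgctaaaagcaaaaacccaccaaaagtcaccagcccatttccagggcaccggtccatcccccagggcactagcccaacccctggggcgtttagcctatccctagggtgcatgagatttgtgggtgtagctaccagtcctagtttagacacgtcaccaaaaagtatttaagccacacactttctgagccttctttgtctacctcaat
The RMER3D-int piece is from exon 3 of Gm35019, chr15:37897455-37897754 on the minus strand.
RMER3D-int: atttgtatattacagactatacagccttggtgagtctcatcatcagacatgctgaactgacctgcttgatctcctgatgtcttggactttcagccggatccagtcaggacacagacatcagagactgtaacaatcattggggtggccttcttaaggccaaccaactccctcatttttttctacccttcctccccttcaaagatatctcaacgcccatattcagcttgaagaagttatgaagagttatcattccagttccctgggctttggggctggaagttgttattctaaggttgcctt
The RLTR13D2 copy is from exon 4 of Gm32618, chr15:32795402-32795701 on the plus strand.
RLTR13D2: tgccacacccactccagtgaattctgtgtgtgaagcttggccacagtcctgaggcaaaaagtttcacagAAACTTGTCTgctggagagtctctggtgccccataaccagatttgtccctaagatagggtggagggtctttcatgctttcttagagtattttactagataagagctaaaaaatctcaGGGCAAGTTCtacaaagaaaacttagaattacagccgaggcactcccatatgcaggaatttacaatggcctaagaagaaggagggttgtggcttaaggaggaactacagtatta
The RLTR1F_Mm copy is exon 1 of Gm37087, chr3:92246090-92246241 on the minus strand, and all 152 of its bases were identical in Gm37752.
RLTR1F_Mm: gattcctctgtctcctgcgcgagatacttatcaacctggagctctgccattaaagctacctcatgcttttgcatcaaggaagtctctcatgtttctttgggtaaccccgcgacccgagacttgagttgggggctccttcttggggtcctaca
The second group are the parts of 3 LTRs that lie just before a gene's start, from RefSeq on GRCm38.p6. The RLTR42 part precedes Tfpi, chr2:84476776-84476862 on the minus strand.
RLTR42: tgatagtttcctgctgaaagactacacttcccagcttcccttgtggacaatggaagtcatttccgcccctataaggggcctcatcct
The RMER13B part precedes Ms4a4d, chr19:11536695-11536793 on the plus strand.
RMER13B: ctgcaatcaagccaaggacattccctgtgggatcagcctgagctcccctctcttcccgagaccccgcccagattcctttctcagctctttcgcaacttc
The RLTR11C_MM part precedes 1 start of Stambpl1, chr19:34232375-34232624 on the plus strand, against the direction of the LTR.
RLTR11C_MM: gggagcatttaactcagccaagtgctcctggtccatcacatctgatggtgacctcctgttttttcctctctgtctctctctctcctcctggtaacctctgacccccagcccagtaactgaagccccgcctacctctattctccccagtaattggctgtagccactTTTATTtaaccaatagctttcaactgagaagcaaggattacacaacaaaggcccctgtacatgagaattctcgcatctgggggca

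Of the sequences shown, RLTR13D2 held 2 p53 half-sites and RLTR11C_MM held 1 AATAAA on the opposite strand. The others held none of the 3 motifs. Half-sites also occurred in RLTR13D5 exon sequences of Gm15675, searched but not shown, with log2 fold changes of -1.37 and -1.1 in the authors' deposited table. Those RLTR13D5 sequences and an RMER17C exon of Gm43196, also not shown, held AATAAA. The RLTR19-int part before the Apobec1 start, not shown either, held TATAAA. Among 32851 RefSeq promoter windows of 300 bases, 8.36% held a p53 half-site, 19.6% AATAAA and 13.6% TATAAA. In stretches of 250 bases ending at a start, 7.13% held a half-site and 18.1% AATAAA. These windows are promoters, while the first group of sequences are exons. A match describes the letters in the window and not binding.

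Across the series, libraries held 15319956 to 19954170 gene counts. Trp53 itself was at 29.6, 25.5 and 25.3 CPM (gene counts scaled to library size) in the Trp53_KO libraries, replicate 1 first, against 110, 97.3 and 105 CPM in Trp53_WT, with no overlap. Trp53_WT replicate 1 stood apart from the other libraries of its genotype, with a chi-square per degree of freedom of 29.7 and 29.2 against them, while those differed by 2.1. Malat1, a nuclear RNA, took 0.640 to 0.735% of counts in Trp53_KO and 1.05 to 1.08% in Trp53_WT, and its part in the repeat values was not tested. Of 9 markers of ovarian surface epithelium, Epcam was at 0 in every library, and of the 8 tested, 3 were higher and 3 lower. Of 9 markers of other cell types, Adgre1 and Cdh5 were at 0 in every library, and 5 of the 6 tested were higher. Of all tested genes, 30.3% had an edgeR adjusted p under 0.05 in either direction. Mean CPM in Trp53_KO and Trp53_WT were 551 and 145 for the fibroblast gene Col1a1 and 235 and 102 for Dcn, also of fibroblasts. The endothelial gene Pecam1 was at 1.95 and 0.153 CPM. Cd68 lay the other way without passing (-0.29 ± 0.13, SE; edgeR adjusted p = 0.12). Ptprc, untested, had 1 count in Trp53_KO and 9 in Trp53_WT. The summed level of the 9 markers, mostly Col1a1 and Dcn, was 701 to 855 CPM in Trp53_KO and 231 to 293 CPM in Trp53_WT. The part of these genes in the results was not tested.

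Rows with an FDR under 0.05 in the authors' deposited table are here termed called. Of the 22540 rows of that authors' deposited table, 93 were called higher in Trp53_KO and 85 were called lower. The share called higher was 0.413%, against 0.388% of all rows of the table, and the share called lower was 0.377% against 0.284%. Both shares were close to the background of the authors' deposited table. The remaining 15241 ERVK rows of the authors' deposited table, among them the intracisternal A particles, had 280 higher rows (1.84%) and 48 lower rows (0.315%). No test of these differences was made, since rows that share a provirus, a gene or reads are not replicates. The median log2 fold change in the authors' deposited table was 0.00 for the RLTR and RMER rows as for all rows, and 50.2% of the RLTR and RMER rows had an FDR of 0.9 or more. The called rows were a median of 482 bases long, against 364 for all rows of the set.

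**Figure D1:**
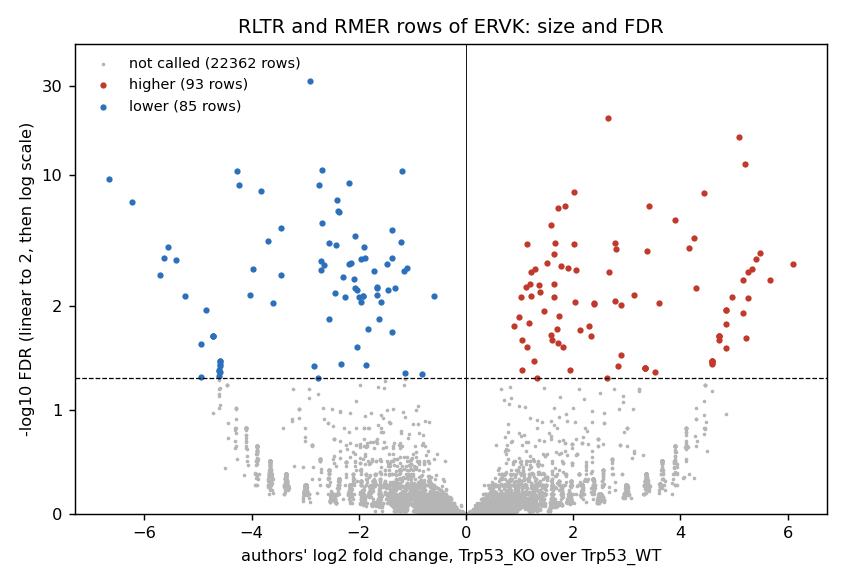
Each point is 1 of the 22540 RLTR and RMER rows of the authors' deposited table, with the log2 fold change of Trp53_KO over Trp53_WT on the x axis and -log10 of the FDR on the y axis (linear to 2, then logarithmic). The 93 higher rows (red) and 85 lower rows (blue) lie above the dashed line at an FDR of 0.05, and vertical strings of points mark values that recur.

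The plot of size and FDR shows that some sizes recurred. Of the 178 called rows, 13 in the authors' deposited table had a log2 fold change of 4.59 to 4.60 in size, 7 of 4.73, 5 of 4.85 to 4.86 and 4 of 3.33. These 29 rows had FDRs from 0.011 to 0.047, and 450 called rows of the whole authors' deposited table had the same sizes. The authors' deposited table holds no read count with which to say how many reads lie behind such a value. At the threshold, 13 rows had an FDR from 0.04 to 0.05 and 14 from 0.05 to 0.06 in the authors' deposited table.

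Calls were spread thinly over the names. Of the 177 names, 142 had at least 20 rows, 52 had a higher row, 48 had a lower row and 25 had both. The other 102 names, with 6719 rows, had no called row. RMER12C (389 rows), RMER12 (376), RLTR25B (314) and RLTR42-int (311) were among the names with none.

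Names with at least 3 higher rows in the authors' deposited table were RLTR17B_Mm (6 of 1883 rows), RMER6A (5 of 938), RLTR17 (4 of 231), RLTR9D (4 of 69), RMER6C (4 of 347), RMER16-int (3 of 214), RMER4A (3 of 585), RMER13A2 (3 of 182) and RMER17C (3 of 616). Only RLTR9D among these exceeded 2% higher, at 5.80% in the authors' deposited table, against 0.388% of all its rows. It also had 1 lower row (1.45%). Its 4 higher rows lay in Sfrp4, Rnf213, Rai14 and the chromosome 6 region described below, each in a gene that was also called higher. RLTR9 elements are known as targets of pluripotency factors in stem cells.

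Names with at least 3 lower rows in the authors' deposited table were RMER6C (5 of 347), RMER4B (4 of 840), RMER19C (4 of 235), RMER3D-int (4 of 192), RMER13B (4 of 162), RLTR13D5 (3 of 52), RLTR13A3 (3 of 67), RLTR11A (3 of 370), RMER19B (3 of 835), RMER6A (3 of 938), RLTR17B_Mm (3 of 1883) and RMER16-int (3 of 214). All 3 lower RLTR13D5 rows lay in 1 gene, and 3 of the 4 lower RMER3D-int rows at 1 locus cluster, so these counts are of neighbours. RMER19C and RMER6A also had neighbouring lower rows, on chromosome 13 and in Vstm5. Over all rows of that table, 0.284% were lower. RMER6C, RMER6A, RLTR17B_Mm and RMER16-int stood on both sides.

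**Figure D2:**
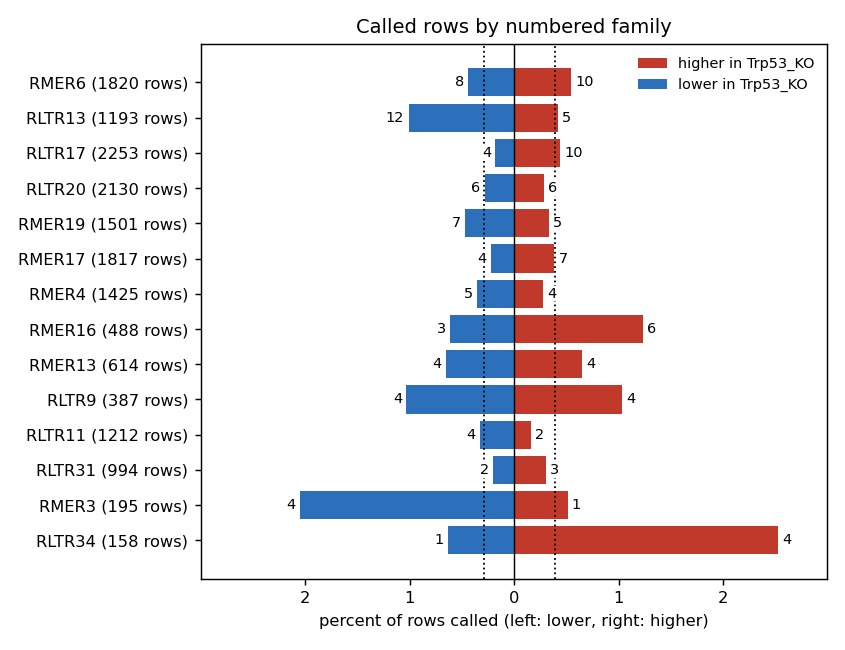
Bars give the percent of rows called higher (right, red) and lower (left, blue) in the authors' deposited table for the numbered families with at least 5 called rows, the number beside each bar is the count of rows, and dotted lines mark 0.388% and 0.284%, the shares over all rows. RLTR13 had 12 lower and 5 higher rows, RLTR17 had 10 higher and 4 lower, and the longest bars, RLTR34 and RMER3, rest on 4 rows each.

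Grouping names by their number gave 40 families, of which 7 had no called row. As the plot of called rows by family shows, RLTR13 had 12 lower rows (1.01% of 1193) and 5 higher (0.419%) in the authors' deposited table. Of the 12 lower RLTR13 rows, 3 are RLTR13D5 rows in the lincRNA Gm15675. RLTR17 had 10 higher (0.444% of 2253) and 4 lower rows (0.178%) in the authors' deposited table. Over all rows of that table, 0.388% were higher and 0.284% lower. RMER6 had 10 higher (0.549%) and 8 lower (0.44%) of 1820 rows in the authors' deposited table. RLTR34 had 4 higher rows among 158 (2.53%) and RMER16 6 among 488 (1.23%) in the authors' deposited table. Of the 6 RMER16 rows, 3 lie side by side on chromosome 2 and 2 are RMER16A3 pieces in copies of the ERVB4_1B provirus described below. These counts are therefore partly of neighbours or related copies. The 457 rows of RLTR25 had no call in either direction.

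By the annotation given in the authors' deposited table, 15774 rows (70.0%) were intronic, 5025 (22.3%) intergenic, 1142 in 3′ and 556 in 5′ untranslated classes, and 43 in other exons. The 5′ class includes exons of noncoding RNAs. In the authors' deposited table the intronic rows were called higher in 56 cases (0.355%) and lower in 32 (0.203%), and the intergenic rows in 20 (0.398%) and 30 (0.597%). Over all repeats of the authors' deposited table, intronic rows were called higher in 0.238% and lower in 0.203%, and intergenic rows in 0.850% and 0.401%. The 5′ class had 7 higher (1.26%) and 15 lower rows (2.70%) in the authors' deposited table, against 0.567% and 0.579% of all repeats of that class. Several of these rows share a gene, and the difference was not tested.

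Reads ran along the repeat's own strand in 8708 rows (38.6%) and against it in 13832. In intergenic rows the 2 directions were nearly even, with 2489 sense and 2536 antisense rows. Of the called rows in the authors' deposited table, 37 of 93 higher and 44 of 85 lower were sense. No locus was called in both directions. Names ending in -int, the internal parts, had 7 higher (0.519%) and 11 lower (0.815%) of 1349 rows in the authors' deposited table. Over all rows of that table the shares were 0.388% and 0.284%. Several of the lower internal rows, of RMER3D-int, RLTR19-int and RMER16-int, lie in a single run on chromosome 15 described below.

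Most called rows had changed neighbours. Within 5 kb and in the same read direction, 112 of the 178 called rows (62.9%) had a called repeat outside the set in the authors' deposited table, against 741 of 22362 uncalled rows (3.31%). In 111 of the 112 the neighbour moved the same way. The called rows were picked by their change in the same libraries, so this is a description. No such share is given for other repeats, so it is not shown to be particular to these LTRs. Joining called rows that lay within 50 kb of each other with the same read strand and direction gave 79 higher and 64 lower units. Of these, 10 higher units held 24 rows and 10 lower units held 31 rows.

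The higher row with the lowest FDR was the RLTR46B copy at chromosome 6, 3333361 to 3333740 (mm10, which is GRCm38), with a log2 fold change of 2.66 (FDR 7.3e-21) in the authors' deposited table. It abuts an internal IAPEY4_I-int sequence whose other end abuts a second RLTR46B copy, 3341287 to 3341607, at 1.65 (FDR 0.00016) in the authors' deposited table. The internal pieces between them were at 2.54 and 2.24 in the authors' deposited table, so both LTRs and the interior rose, all with reads in the sense direction. An RMER17C copy upstream on the chromosome (2.66) and an RLTR9D copy beyond the provirus (2.29) were called too in the authors' deposited table. Of the 37 repeat rows on this strand from 3324108 to 3344489, 26 were called higher, none lower, and all 37 were above 0 in the authors' deposited table.

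The genes that the authors annotate over this region are unnamed noncoding loci. RP24-328P2.5, where GENCODE M21 has Gm20559, stood at 138, 136 and 140 CPM in the Trp53_KO libraries against 29.0, 26.0 and 25.4 CPM in Trp53_WT. The groups did not overlap. Its log2 fold change was 2.37 ± 0.076 (SE; edgeR quasi-likelihood test, adjusted p = 2.9e-08). RP23-253G12.8, over the RMER17C copy, rose by 3.16 ± 0.25 on the log2 scale (SE; edgeR adjusted p = 9.7e-06), with 4.21 ± 0.35 CPM in Trp53_KO and 0.467 ± 0.17 CPM in Trp53_WT (SD, n = 3 each). Gene counts and repeat rows come from the same libraries, so a gene and the LTR inside it are not independent measurements.

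**Figure D3:**
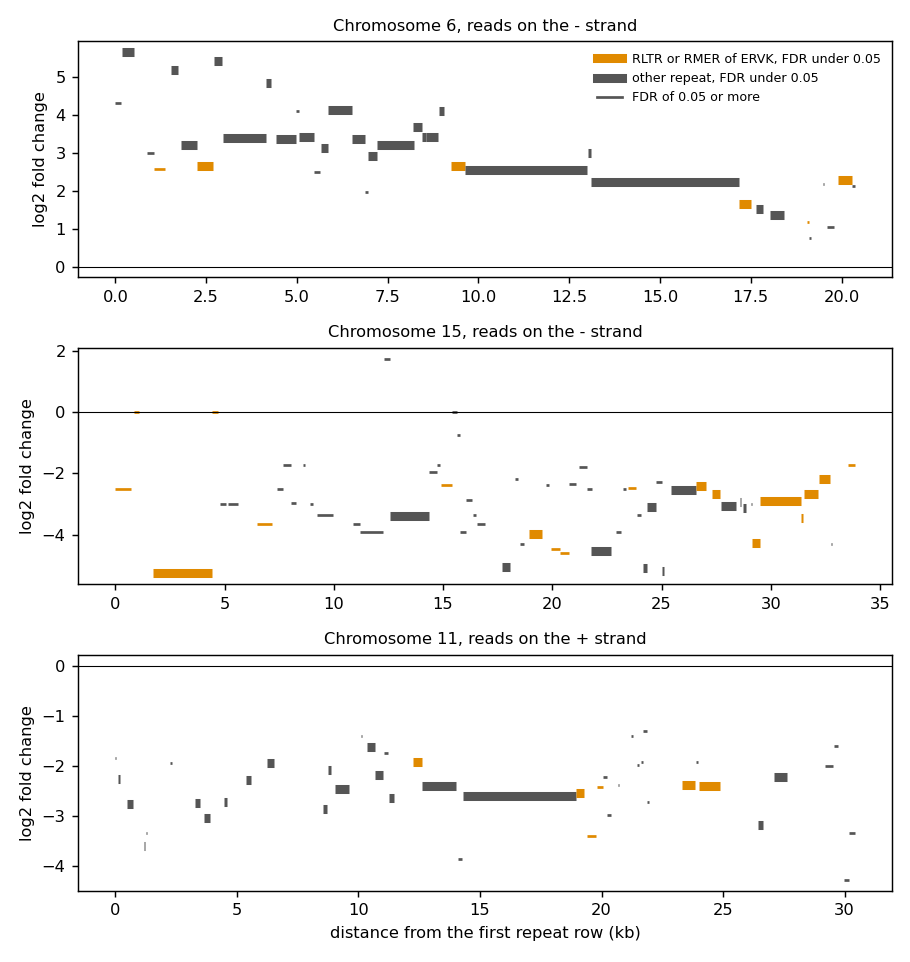
Bars are repeat rows of the authors' deposited table by distance from the first row of the region (x axis, kb) and log2 fold change (y axis). Orange bars are RLTR or RMER rows, dark bars other repeats, thick bars have an FDR under 0.05. All rows on chromosome 6 lie above 0, all on chromosome 11 below 0, and on chromosome 15 1 of 59 rows lies above 0.

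The lower row with the lowest FDR was the RMER3D-int piece at chromosome 15, 37896328 to 37898166, at -2.91 (FDR 2.3e-32) in the authors' deposited table. It belongs to a run of 9 called rows from 37868521 to 37899506, made of 3 RMER3D-int pieces and single RLTR17, RLTR15, RLTR45, RLTR16B_MM, RLTR19-int and RMER16-int rows, at -5.25 to -2.18 in the authors' deposited table. The 7 rows nearest the right end have reads in the sense direction, while the RLTR19-int and RMER16-int rows have antisense reads. Of the 59 repeat rows on this strand, 19 were called lower, none higher and 55 were below 0 in the authors' deposited table. The map of the 3 regions shows the called rows crowded towards the right end, where the lincRNA Gm35019 (37892995 to 37899716) lies. The gene there in the count table, RP23-181J14.2, was at 1.84, 2.29 and 1.65 CPM in Trp53_KO and 12.2, 15.9 and 11.9 CPM in Trp53_WT. It fell by 2.80 ± 0.18 on the log2 scale (SE; edgeR adjusted p = 2.3e-06).

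On chromosome 11 the run had no annotated gene. Between 20968651 and 20981271, 2 RLTR9A3B copies that flank an MMERVK9E_I-int interior, an RMER19C and an RLTR13B1 copy were called lower, at -2.55 to -1.92 in the authors' deposited table. The reads ran on the plus strand and all 4 repeats lie on the minus strand, so the reads were antisense to the provirus. Of the 43 rows on this strand from 20956391 to 20986835, 22 were called lower and all 43 were below 0 in the authors' deposited table.

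A short RMER16A3 piece of 108 bases was called in 2 copies of 1 kind of provirus, ERVB4_1B. On chromosome 10, 100142799 to 100142906, it was at 4.44 (FDR 9e-09), and all 7 repeat rows of that provirus were called higher in the authors' deposited table. On chromosome Y, 59665902 to 59666009, it was at 5.20 (FDR 4.1e-12), within a row of 6 of which 5 were called in the authors' deposited table. This was the only called row among the 16 RLTR and RMER rows on chromosome Y. Of all 762 repeat rows on chromosome Y, 24 were called higher and 10 lower in the authors' deposited table. ID8 derives from ovary, and whether reads counted on Y come from another copy was not tested. RP24-337D17.1, annotated over the chromosome 10 copy, was at 2.19, 3.44 and 3.03 CPM in Trp53_KO and 0.0675, 0 and 0.161 CPM in Trp53_WT. The groups did not overlap, and the log2 fold change was 5.14 ± 0.49 (SE; edgeR adjusted p = 3.6e-05).

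A further intergenic pair, 2 RLTR44-int pieces on chromosome 16 from 59058684 to 59061194, was at 3.91 and 4.26 (FDR 1.7e-06 and 2.5e-05) in the authors' deposited table. The LTR beside them, RLTR44E, was at 3.23 and missed the threshold (FDR 0.063) in the authors' deposited table. No gene called in the same direction lay within 10 kb of this pair. On chromosome 2, 78409275 to 78411306, 2 RMER16-int pieces and an RMER16_Mm copy were higher by 1.05 to 1.59 in the authors' deposited table, also without such a gene.

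Most other called rows lay in or beside genes that moved the same way. By the authors' annotation 73 of the 93 higher and 55 of the 85 lower rows lay in a gene. The gene could be tested for 69 and 51 of these rows. It was called in the same direction for 63 higher and 43 lower rows, in the opposite direction for 1 higher and no lower row, and was not called for 5 and 8. Among the genes overlapping a called row, or nearest within 10 kb, 55 of 113 tested were called higher and 38 lower (82.3%), against 30.3% of all 13651 tested genes. Since these rows were picked by their change in the same libraries, this is a description. The count takes in genes called against the direction of their row, such as Sprr2a2 described below. The 5346 tested genes that hold any RLTR or RMER row were called in 32.3% of cases, close to the 30.3% background.

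**Figure D4:**
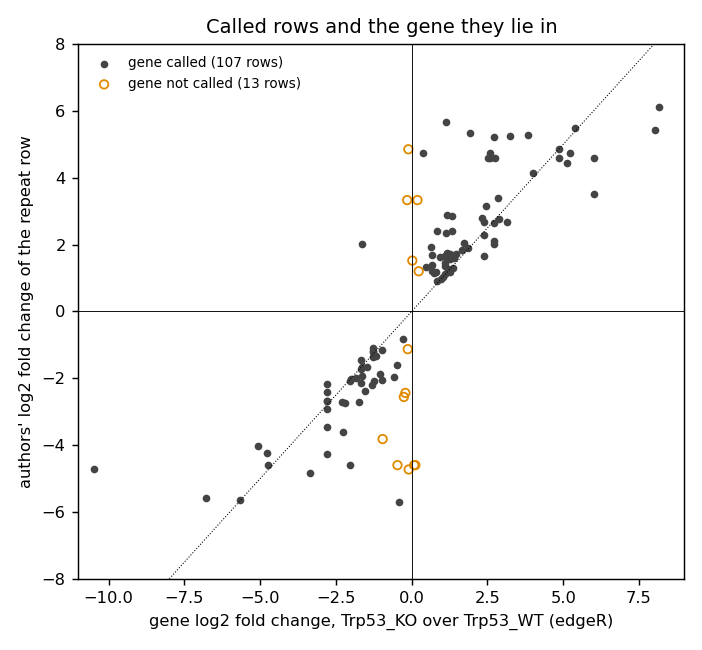
Each point is a called row whose gene was tested, with the gene's log2 fold change (edgeR, x axis) against the row's log2 fold change in the authors' deposited table (y axis). Filled points are the 107 rows in a called gene, open points the 13 rows in a gene that was not called, and the dotted line marks equal values. 1 filled point, RMER13A1 in Fmn1, lies in the upper left.

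Lrrn4, a leucine-rich repeat membrane protein of the mesothelium, was the gene beside the RLTR12C copy at chromosome 2, 132867037 to 132867507. That row was at 5.09 (FDR 1.1e-16), and an intronic RLTR26B_MM copy at 5.42 (FDR 0.00028), in the authors' deposited table. The RLTR12C copy lies beyond the 3′ end of the gene (132868305 to 132880891, minus strand), on the strand of its reads. Lrrn4 was at 65.4, 64.8 and 66.4 CPM in Trp53_KO and 0.135, 0.247 and 0.322 CPM in Trp53_WT, with a log2 fold change of 8.04 ± 0.15 (SE; edgeR adjusted p = 1.1e-09). It was nearly silent in every Trp53_WT library.

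Mir99ahg, the host transcript of a microRNA cluster, held 3 higher rows: RMER6A at 2.01 (FDR 7.3e-09), RMER6C at 2.12 and RLTR22_Mus at 5.22 in the authors' deposited table. The gene stood at 23.8, 27.0 and 26.0 CPM in Trp53_KO and 4.05, 3.91 and 3.65 CPM in Trp53_WT. It rose by 2.73 ± 0.11 on the log2 scale (SE; edgeR adjusted p = 9.3e-08). Pkhd1l1, a large membrane protein gene, held 4 higher rows between 1.36 and 1.67 in the authors' deposited table and itself rose by 1.09 ± 0.096 (SE; edgeR adjusted p = 2.1e-05).

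The other genes at the 10 higher rows of lowest FDR changed the same way. Near the RMER4A copy on chromosome 15 (82368081 to 82368505, 3.41 in the authors' deposited table), Cyp2d22, a cytochrome P450 enzyme, rose by 2.62 ± 0.28 (SE; edgeR adjusted p = 7.2e-05). Its gene lies on the minus strand and the repeat reads on the plus strand. Lpcat2, an enzyme of phospholipid remodelling, rose by 1.47 ± 0.081 (SE; edgeR adjusted p = 9.6e-07) around an RMER6A copy at 1.71 in the authors' deposited table. Wt1os, antisense to the mesothelial transcription factor gene Wt1, rose by 1.27 ± 0.11 (SE; edgeR adjusted p = 2.6e-05) around an RMER19B copy at 1.58 in the authors' deposited table. RP23-91K11.4 rose by 1.67 ± 0.11 (SE; edgeR adjusted p = 3.9e-06) with an RLTR49 copy at 1.85 in the authors' deposited table.

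Among the lower rows of lowest FDR, RMER4B lay in an exon of the lincRNA Ptgs2os2 (chromosome 1, 150159478 to 150160000), at -4.23 (FDR 1.6e-09) in the authors' deposited table. Ptgs2os2 was at 0.153, 0.181 and 0.266 CPM in Trp53_KO and 5.87, 5.89 and 5.15 CPM in Trp53_WT. It fell by 4.77 ± 0.24 on the log2 scale (SE; edgeR adjusted p = 4.5e-07). B3gnt3, a glycosyltransferase, fell by 1.29 ± 0.085 (SE; edgeR adjusted p = 2.9e-06) and the RMER4B copy in its 3′ end by 1.20 in the authors' deposited table. Rdh10, a retinol dehydrogenase, fell by 1.30 ± 0.078 (SE; edgeR adjusted p = 1.5e-06) and its intronic RLTR11A2 copy by 2.19 in the authors' deposited table. Tnfrsf23, a decoy receptor of the TNF family, fell by 2.20 ± 0.18 (SE; edgeR adjusted p = 1.3e-05) and the RLTR19-int piece at its 3′ end by 2.74 in the authors' deposited table.

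Larger decreases were given for 2 RMER19C copies on chromosome 13 (36857407 to 36857905 and 36865801 to 36866323), at -6.23 and -6.65 in the authors' deposited table. They lie beyond the 3′ end of F13a1, which encodes the A subunit of coagulation factor XIII, with reads on its strand. F13a1 was at 6.32, 6.70 and 7.98 CPM in Trp53_KO and 252, 271 and 259 CPM in Trp53_WT, a log2 fold change of -5.22 ± 0.099 (SE; edgeR adjusted p = 1.1e-09). The gene that the authors annotate over these 2 copies, RP23-283G7.3, had 0 counts in all 6 libraries.

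An RMER13B copy in Itgb6 (chromosome 2, 60693723 to 60694521) was called where its gene was not. It was at -3.82 (FDR 6.7e-09) in the authors' deposited table, with reads on the plus strand, while Itgb6, an integrin subunit, is on the minus strand. Itgb6 was at 0.663, 0.423 and 0.319 CPM in Trp53_KO and 0.608, 0.940 and 1.18 CPM in Trp53_WT, with overlapping groups and a log2 fold change of -0.96 ± 0.37 (SE; edgeR adjusted p = 0.079). Without Trp53_WT replicate 1 its value was -1.15 (edgeR adjusted p = 0.023).

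Some genes had no or few counts in 1 genotype. Tnfrsf11a, the receptor RANK, was counted 109 times over the Trp53_KO libraries and 0 times over those of Trp53_WT. With 3 counts over the group taken as the limit, it was at least 35-fold higher in Trp53_KO. An RLTR33 copy in its 3′ end was at 6.11 in the authors' deposited table. Slc7a2, a cationic amino acid transporter, fell by 6.78 ± 0.12 (SE; edgeR adjusted p = 1.1e-09), and its RLTR13A3 copy was at -5.57 in the authors' deposited table. Floors and intervals cover counting error only.

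The RLTR13D5 rows all lay in the lincRNA Gm15675 on chromosome 1, at -1.37, -1.21 and -1.10 in the authors' deposited table. AC111067.4, the gene named there, fell by 1.27 ± 0.16 (SE; edgeR adjusted p = 0.00021), with 11.9 ± 1.8 CPM in Trp53_KO and 28.8 ± 5.8 CPM in Trp53_WT (SD, n = 3 each). The RLTR1F_Mm copies on chromosome 3 were at -2.03 and -1.92 in the authors' deposited table, within RP24-574O8.8 (-2.01 ± 0.16) and RP24-574O8.9 (-1.65 ± 0.19; SE; edgeR adjusted p = 1.2e-05 and 0.00013). With 100% identity over the 152 exon bases shown above, reads of these 2 loci could be split between them, and their separate values are uncertain. Sprr2a2 also overlaps the copy at -1.92, but not on its read strand, and went the other way. It rose by 1.74 ± 0.14 (SE; edgeR adjusted p = 1e-05).

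Rows that changed without company were few. In all, 10 higher rows (10.8%) and 16 lower rows (18.8%) had no called repeat outside the set moving the same way within 5 kb on their strand, no gene called the same way within 10 kb and no called RLTR or RMER row in the same unit. Of the 10, 4 had one of the recurring sizes, and of the 16, 5 did. Genes with too few counts to test could not count as company. The RLTR13D2 copy on chromosome 15 whose sequence is printed above was one of the 10, at 4.96 (FDR 0.0061) in the authors' deposited table. Its gene RP23-310D3.2, untested, had 38 counts in Trp53_KO and 2 in Trp53_WT, a ratio of 18.6 (exact 95% interval 4.79 to 159) in the same direction. RP24-286N17.3, around an RMER4A copy among the 16, was likewise untested, with 2 counts in Trp53_KO and 14 in Trp53_WT, a ratio of 7.17 (1.65 to 65.0). Fmn1, which encodes a formin, held 2 of the called rows, an RMER13A1 copy without company at 2.03 (FDR 0.0082) and an RMER6C copy at -1.65 (FDR 0.0054) in the authors' deposited table. Fmn1 was at 56.5, 62.4 and 64.5 CPM in Trp53_KO and 254, 161 and 158 CPM in Trp53_WT, and fell by 1.64 ± 0.17 (SE; edgeR adjusted p = 6.6e-05). The RMER13A1 copy therefore moved against the gene and against the other LTR.

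Ston1, like Itgb6, gained a call without Trp53_WT replicate 1. The RLTR21 copy in Ston1, an endocytic adaptor, was at 1.52 (FDR 0.0004) in the authors' deposited table. Ston1 was at 70.2, 73.1 and 76.1 CPM in Trp53_KO and at 125, 47.9 and 45.2 CPM in Trp53_WT, a log2 fold change of 0.02 ± 0.33 (SE; edgeR adjusted p = 0.98). Without Trp53_WT replicate 1 the value was 0.65 (edgeR adjusted p = 1.7e-06). Without that library the gene was called in the same direction for 65 of 70 higher and 44 of 51 lower rows.

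A gene can also begin inside an LTR. RefSeq places 41 starts of 40 genes inside an RLTR or RMER locus, 78.0% of them on the strand of the repeat. Only 10 of the 40 genes could be tested, and 5 were called: Tfpi and Rnf185 higher, and Ms4a4d, Stambpl1 and Apobec1 lower. Most of the untested genes were absent from the count table under their symbol, so their level is unknown. GENCODE M21 gives 193 starts of 158 genes, of which 73 were tested, 9 called higher and 11 lower. That is 27.4%, near the 30.3% of all tested genes. Many GENCODE starts belong to partial transcripts such as retained introns, and without these and processed transcripts 7 of 26 genes were called (26.9%).

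Tfpi, the tissue factor pathway inhibitor that restrains coagulation, was called higher. Its RefSeq start (84476759, chromosome 2, minus strand) and 3 GENCODE coding starts lie in the RLTR42 copy at 84476626 to 84476862, whose part before the starts is printed above. The row was at 2.63 (FDR 0.049) in the authors' deposited table. Tfpi was at 17.8, 17.1 and 15.0 CPM in Trp53_KO and 2.77, 2.52 and 2.41 CPM in Trp53_WT. The groups did not overlap, and the log2 fold change was 2.70 ± 0.13 (SE; edgeR adjusted p = 3.2e-07). RefSeq gives Tfpi 2 starts, and the counts per gene do not separate them.

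Kctd14, a gene with a potassium channel tetramerisation domain, begins in an RLTR49 copy (chromosome 7, 97450747 to 97451437) by GENCODE. It was at 5.25, 4.95 and 6.17 CPM in Trp53_KO and 0.878, 0.692 and 0.536 CPM in Trp53_WT and rose by 2.97 ± 0.21 (SE; edgeR adjusted p = 4.5e-06). The RLTR49 row itself was at 3.65 and was not called (FDR 0.32) in the authors' deposited table.

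Ms4a4d, a gene of the MS4A membrane protein family, begins in the RMER13B copy of chromosome 19 (11536695 to 11537073), which was at -4.59 (FDR 0.038) in the authors' deposited table. It had 1 count in Trp53_KO and 36 in Trp53_WT, a ratio of 36.9 with an exact 95% interval from 6.21 to 1500. The fitted log2 fold change was -4.75 ± 0.69 (SE; edgeR adjusted p = 0.00057). Stambpl1, a deubiquitinase with 4 RefSeq starts, was at 2.24, 2.41 and 1.49 CPM in Trp53_KO and 6.55, 7.22 and 7.24 CPM in Trp53_WT and fell by 1.78 ± 0.18 (SE; edgeR adjusted p = 4.9e-05). The RLTR11C_MM row on its strand was at -2.16 and was not called (FDR 0.62) in the authors' deposited table. The Stambpl1 start in that LTR (34232625) lies within the gene (34192229 to 34240333). The counts per gene do not separate the 4 starts. Apobec1, a cytidine deaminase, begins in an RLTR19-int piece and fell by 0.80 ± 0.19 (SE; edgeR adjusted p = 0.0098), a call that DESeq2 did not make (adjusted p = 0.084). That RLTR19-int row was at 0.0 and was not called in the authors' deposited table. Rnf185, a ubiquitin ligase, was at 0.24 ± 0.081 (SE; edgeR adjusted p = 0.048), a call that held only with RLE size factors among the 10 alternatives (adjusted p 0.053 to 0.18 in the others).

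**Figure D5:**
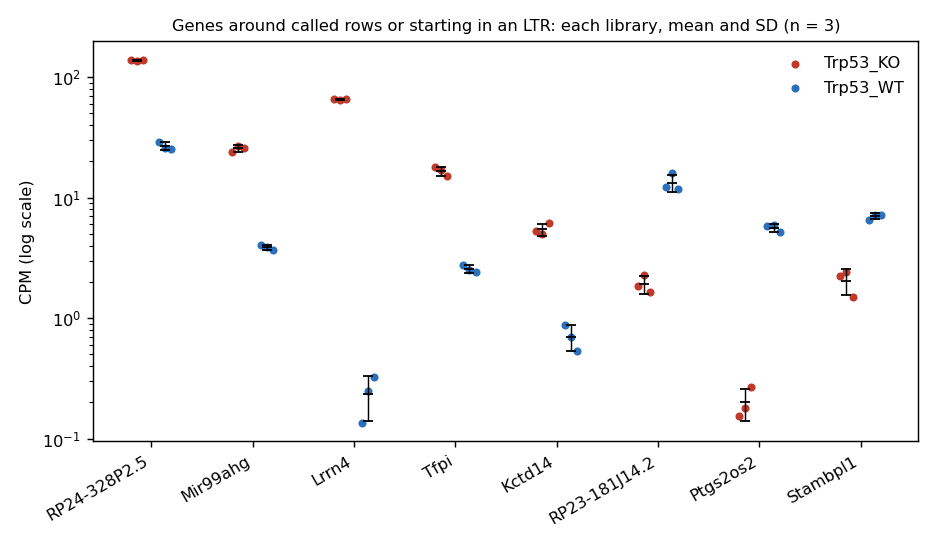
Points are CPM (log scale, y axis) in each of 3 Trp53_KO (red) and 3 Trp53_WT (blue) libraries for 8 genes, with the mean and SD in black. The genes lie around called rows or have at least 1 annotated start in an LTR. In all 8 the genotypes do not overlap, with the first 5 genes higher in Trp53_KO and the last 3 lower.

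The plot of the 8 genes shows the libraries of each genotype close together beside the distance between genotypes. Of 33 listed silencing genes, not all of them specific to ERVK copies, 32 were in the count table and 31 were tested. Of these, 10 were called higher and 3 lower (41.9% called, against 30.3% of all tested genes), with a median log2 fold change of 0.07 against -0.017 for all tested genes. The count of 13 fell to 7 without Trp53_KO replicate 1 and to 7 without Trp53_WT replicate 2.

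Trim28, the corepressor, was at 503, 468 and 490 CPM in Trp53_KO and 397, 406 and 435 CPM in Trp53_WT, higher by 0.24 ± 0.063 on the log2 scale (SE; edgeR adjusted p = 0.018). Setdb1 was at 110, 111 and 107 against 108, 111 and 108 CPM, with overlapping groups (edgeR adjusted p = 0.94). Dnmt1, the maintenance DNA methyltransferase, was at 407, 366 and 404 against 340, 342 and 343 CPM, higher by 0.20 ± 0.063 (SE; edgeR adjusted p = 0.037). The calls of Trim28 and Dnmt1 were each lost when single libraries were left out, with adjusted p up to 0.079 and 0.13.

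The largest increases of the list were in Dnmt3b (0.52 ± 0.13), Dnmt3a (0.45 ± 0.086) and Daxx, a histone H3.3 chaperone (0.43 ± 0.095; SE; edgeR adjusted p = 0.014, 0.0031 and 0.0069). Cbx1 (0.39), Zfp568 (0.34), Chaf1a (0.29), Kdm1a (0.25) and Morc2a (0.22) were also called higher. Suv39h1, a histone H3 lysine 9 methyltransferase, fell by 0.43 ± 0.075 (SE; edgeR adjusted p = 0.0018), and Zfp57 fell by 0.31 and Atrx by 0.26. The Dnmt3b call was lost with DESeq2 (adjusted p = 0.055) and without Trp53_KO replicate 3 (edgeR adjusted p = 0.057). Leaving out single libraries also ended the calls of Morc2a and Atrx (edgeR adjusted p up to 0.11 each), Kdm1a (0.060), Chaf1a (0.059), Cbx1 (0.056) and Zfp57 (up to 0.056). The calls of Dnmt3a, Daxx, Zfp568 and Suv39h1 held under the 10 alternatives run.

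Of 9 transcription factors known to bind RLTR9 and RLTR13 elements in embryonic or trophoblast stem cells, only 2 had enough counts to test. Klf4 was at 61.5, 65.6 and 67.2 CPM in Trp53_KO and 85.5, 80.4 and 77.5 CPM in Trp53_WT and fell by 0.33 ± 0.073 (SE; edgeR adjusted p = 0.0079). With Trp53_KO replicate 1 left out, Klf4 was no longer called (edgeR adjusted p = 0.055). Nanog was at 1.12, 1.39 and 0.691 CPM in Trp53_KO and 0.675, 0.593 and 0.751 CPM in Trp53_WT, with overlapping groups, and was not called (edgeR adjusted p = 0.16). Sox2, Cdx2, Eomes and Elf5 had 0 counts in all 6 libraries.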

How the data were processed

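RNA-seq libraries of 6 ID8 samples were analysed, 3 per genotype. STAR, featureCounts, edgeR and the build mm10 are named per the submitters' processing notes, and their versions were not given in the sources used here. One deposited file holds raw counts for 41327 gene symbols. For each locus and read direction the authors' deposited repeat tables hold a log2 fold change with its FDR (an adjusted p-value). As a check of the log base, 622 rows lying in exons or 3′ ends of called genes had a median ratio of 1.03 to the value fitted for the gene (natural logarithms would give 0.693). The suffix of a row was read as its read strand, since it equalled the gene's strand in 88.0% of 38905 rows in exons or 3′ ends of genes. All 2853 rows of the authors' deposited table of higher repeats, 91 of them RLTR or RMER, are those past 1 in log2 fold change that also have an FDR under 0.05. How reads shared by several copies were assigned is not given in these sources.

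Repeat rows were counted, not tested. The members, the gene lists and the alternatives were chosen with earlier results of these data known. Gene counts were fitted with edgeR 4.0.16 in R 4.3.3 (filterByExpr, TMM, quasi-likelihood test, genotype as the only term, all 6 libraries, Benjamini-Hochberg, threshold 0.05). Of the genes, 18744 had no count and 13651 were tested. SEs are the fold change over the square root of F. CPM are TMM-scaled. Intervals of ratios are exact, at 95%. The fit was tested on simulated data. Gene positions are from GENCODE M21 (GRCm38, the same assembly as mm10). The rule for named items took every name with at least 3 called rows in a direction, the 10 rows of lowest FDR each way with the genes overlapping them or nearest within 10 kb, the called members of the lists, and Trim28, Setdb1, Dnmt1 and Trp53; Tfpi, Ms4a4d, Stambpl1, Apobec1, Rnf185, Kctd14, Ston1, Fmn1, F13a1, Tnfrsf11a, Slc7a2, Pkhd1l1, AC111067.4, RP23-253G12.8, RP24-574O8.8, RP24-574O8.9, RP23-310D3.2, RP24-286N17.3, Nanog, the regions, the recurring sizes and the printed sequences were chosen after their values were seen. Sequences were taken from RefSeq promoter windows and GENCODE transcripts, since no genome sequence was used here. No replicate pair agreed within sampling noise (chi-square per degree of freedom 2.1 to 29.7). Alternatives were stricter thresholds, rows outside genes or exons, RLE size factors, no count filter, DESeq2 1.42.0, the replicate block and each library left out. A few items are not reported here.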

Additional observations from a re-analysis of the deposited data

How the results depend on the processing

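The counts of RLTR and RMER rows changed most with where the rows lie. Of the 93 higher and 85 lower rows, 51 and 60 had an FDR under 0.01 and 91 and 83 a log2 fold change beyond 1. Counting each locus once left both counts as they were, and 76 and 62 rows lay outside annotated exons. Outside annotated genes 20 higher and 30 lower rows remained among 4810, that is 0.416% and 0.624%. Without rows within 10 kb of a gene called the same way the counts were 24 and 32.

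With RLE size factors, every gene with at least 1 count, DESeq2 or the replicate block, the genes around called rows gave 93 to 96 calls, the silencing list 12 to 14, and the genes starting in an LTR 20 to 25, against 93, 13 and 22. With the replicate block these were 93, 12 and 20, and 3806 of all genes were called, against 4130. Leaving out each library in turn gave 92 to 98 for the genes around called rows, 7 to 15 for the silencing list, 13 to 26 for genes starting in an LTR and 2977 to 4984 over all genes. Same-numbered libraries did not deviate together (correlations -0.053, 0.077 and -0.122), so the numbers do not pair the samples. The genes starting in an LTR were added after seeing the data. For 48 named genes under 10 alternatives each, 445 of 480 values stayed on their side of the threshold, 33 lost a call, 2 gained one and none of the calls changed direction. The lost calls touched 12 genes. The repeat rows could not be refitted, since the table holds no library values.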
